A study of Mus musculus with 12 samples.

Results

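Ppp1r3c and Tat are 2 genes of liver sugar and amino acid metabolism whose read counts were higher in PXR-deficient mice on a high-fat diet given PCN than in those given vehicle. They are 2 of the 33 genes that the authors' deposited table lists for PCN against vehicle, out of 369 rows in the tables of the series. Both were chosen by symbol from that table with their values known, and the table itself holds genes selected on the same contrast. The difference between PCN and vehicle is therefore given as a description, and the calls quoted for it, the authors' and those of refits, rest on the same values and support nothing further. Neither gene is among the 336 rows held for high-fat diet against chow, so their levels in the other 2 groups were not analysed here.

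RNA was taken from liver pieces of 12 C57BL/6N mice, all PXR deficient, in 4 groups of 3, each mouse giving 1 library. The pregnane X receptor (PXR) is a nuclear receptor that switches on drug-metabolizing enzymes, and PCN (pregnenolone 16alpha-carbonitrile) is its classical rodent ligand, so PCN was given here to animals deficient in its best known receptor. From 6 weeks of age all mice were fed for 18 weeks, 3 on regular chow and 9 on a high-fat diet (HFD). Of the HFD mice, 3 were injected intraperitoneally with PCN at 50 mg/kg and 3 with a vehicle of 30% DMSO in corn oil, once daily over 4 days. The 3 chow mice and the other 3 HFD mice have no treatment in the labels. The labels give neither sex nor how PXR was removed, every group carries the deficiency, and no PXR-competent mouse is among the samples used here. The PXR gene, Nr1i2, is in neither table as held, which leaves the genotype without a check. Mice are named by the number in their label.

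The product of Ppp1r3c, also called protein targeting to glycogen, is a regulatory subunit of protein phosphatase 1. Such subunits hold the phosphatase on the glycogen particle, where it removes phosphate from glycogen synthase, which activates it, and from glycogen phosphorylase, which inactivates it. Tat encodes tyrosine aminotransferase, a hepatocyte enzyme that catalyses the first step of tyrosine breakdown, a route that ends in fumarate, a source of new glucose, and acetoacetate. Tat is a textbook gene of the liver response to glucocorticoids and to cyclic AMP.

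The genes lie on different chromosomes. Ppp1r3c (ENSMUSG00000067279) is on chromosome 19 from 36731737 to 36736653 of GRCm38 in the authors' deposited table, on the minus strand in GENCODE, with 1 annotated transcript of 2 exons and 2725 exonic bases. Tat (ENSMUSG00000001670) is on chromosome 8 from 109990437 to 109999803, on the plus strand, with 2 annotated transcripts, the longer of 12 exons, and 2405 exonic bases in all. GENCODE places 0 other genes over either span. Reads of either gene thus had no overlapping or antisense partner in that annotation.

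The promoters of the pair are shown because the genes were higher in the same mice, and to show what their start sites share. Each runs from 250 bases before to 50 bases after the RefSeq transcript start in GRCm38.p6, written 5′ to 3′ along the gene. Ppp1r3c is chr19:36736555-36736854 on the minus strand and Tat is chr8:109990186-109990485 on the plus strand. Capitals mark every match found on either strand.
Ppp1r3c: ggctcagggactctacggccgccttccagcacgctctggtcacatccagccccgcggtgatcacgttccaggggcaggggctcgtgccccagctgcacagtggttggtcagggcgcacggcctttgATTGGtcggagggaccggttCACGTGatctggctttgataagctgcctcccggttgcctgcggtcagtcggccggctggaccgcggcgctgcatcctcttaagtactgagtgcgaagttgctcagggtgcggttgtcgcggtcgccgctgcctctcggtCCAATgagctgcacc
Tat: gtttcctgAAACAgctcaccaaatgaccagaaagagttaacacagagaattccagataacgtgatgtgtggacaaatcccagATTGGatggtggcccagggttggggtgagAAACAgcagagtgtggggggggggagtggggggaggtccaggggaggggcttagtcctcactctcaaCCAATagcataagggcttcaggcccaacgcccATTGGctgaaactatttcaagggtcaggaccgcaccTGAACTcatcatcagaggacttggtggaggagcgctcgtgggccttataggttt

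In capitals are CACGTG, an E box, and CCAAT (read as ATTGG on the other strand) in Ppp1r3c. In the Tat window they are AGTTCA (printed there as TGAACT), then TGTTT (printed there as AAACA) and finally CCAAT. This last motif, the core of a common proximal promoter element, was added to the search after the sequences had been seen, and it was the single motif present in both windows, with 2 matches in Ppp1r3c and 3 in Tat. It is also frequent elsewhere, in 37.4% of 32851 RefSeq promoters of this length. The E box of Ppp1r3c begins 104 bases before the start, and 7.15% of promoters hold one. The Tat window holds 2 matches to TGTTT, a forkhead core found in 50.5% of promoters, and 1 to AGTTCA, a nuclear receptor hexamer found in 14.0%.

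Other searched motifs gave 0 matches in both windows. These were AGAACA (the hexamer of a glucocorticoid response element, in 19.0% of promoters), AGGTCA (16.3%), TGACG (the core of a cyclic AMP response element, 20.8%) and TATAAA (13.6%). Paired motifs gave 0 matches too, namely AGAACA inverted around 3 bases, direct repeats of AGGTCA or AGTTCA with 3 or 4 bases between them, and everted repeats with 6. Each pair occurs in at most 0.0274% of promoters. The well-studied glucocorticoid response elements of Tat lie kilobases upstream, outside this window. For either gene no sequence outside the window was searched for any motif, so each 0 covers the window only. The 2 windows also differ in composition, with 65.3% G and C and 26 CG pairs in Ppp1r3c against 53.7% and 5 in Tat (median over all promoters 52.7% and 7).

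Ppp1r3c was higher in each PCN mouse than in any vehicle mouse. Its raw counts were 314, 636 and 723 in vehicle mice 682, 697 and 705, and 4088, 1276 and 1889 in PCN mice 688, 698 and 706. Divided by the authors' size factors, which correct for depth, these became normalized counts of 425.9, 638.5 and 574.9 with vehicle and 3481, 1543 and 1626 with PCN. The lowest PCN mouse stood 2.42-fold above the highest vehicle mouse, and mouse 688 stood 6.37-fold above the vehicle mean. The means were 546 ± 109 in vehicle mice and 2217 ± 1096 in PCN mice (SD, n = 3 each), a 4.06-fold difference.

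Tat was also higher in each PCN mouse than in any vehicle mouse, by less. Its raw counts were 11479, 11328 and 14424 in vehicle mice 682, 697 and 705, and 37903, 16266 and 22228 in PCN mice 688, 698 and 706. The normalized counts were 15569, 11373 and 11469 with vehicle and 32279, 19666 and 19133 with PCN. Here the lowest PCN mouse stood 1.23-fold above the highest vehicle mouse, and mouse 688 stood 2.52-fold above the vehicle mean. The means were 12804 ± 2396 in vehicle mice and 23693 ± 7441 in PCN mice (SD, n = 3 each), a 1.85-fold difference.

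**Figure D1:**
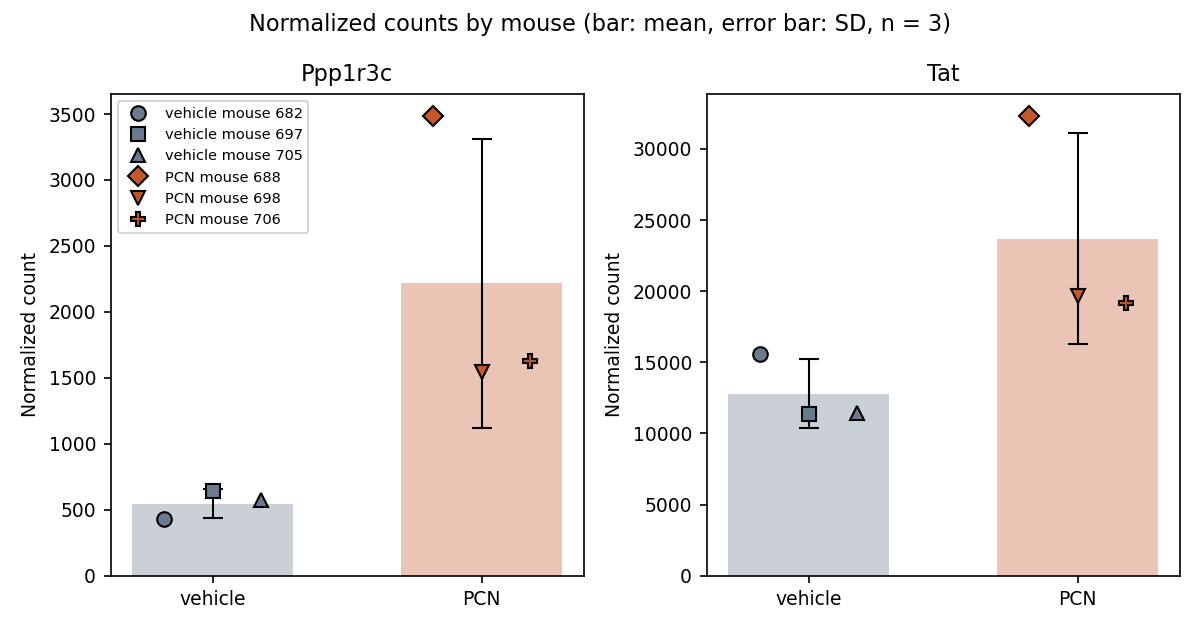
Normalized counts (counts divided by the authors' size factors, vertical axes from 0) of Ppp1r3c and Tat in 3 vehicle and 3 PCN mice, with bars at the mean and error bars of 1 SD. PCN mouse 688 is the highest point for both genes, at 3481 and 32279, and vehicle mouse 682 is the lowest of its group for Ppp1r3c and the highest for Tat.

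The groups did not overlap for either gene, on raw or on normalized counts. The same was true on normalized counts for 33 of the 33 listed genes (100%), which had been selected on this grouping, so nothing is read from it. The authors' deposited table gives Ppp1r3c a log2 fold change of 1.26 (SE 0.18) and Tat one of 0.66 (SE 0.16), with adjusted p-values of 1.65e-08 and 0.03326. These are the values on which the rows were selected. Ppp1r3c was first of the 33 rows by p and by fold change. Tat lay near the edge of the selection, since the smallest absolute log2 fold change in the table is 0.6. Both are among the 17 listed genes that were higher at the authors' adjusted p under 0.05, which is 0.0672% of about 25290 genes tested. Any gene called but left out by the selection is not in this count, so the share is a lower bound. Refitted with edgeR or DESeq2 on the authors' size factors and adjusted over as many genes, the call of Tat was lost and that of Ppp1r3c was kept. These refits took the spread between mice, and the ranks in the adjustment, from the 33 listed genes alone. A call lost in them is therefore not like for like with the authors' test. With edgeR the call of Ppp1r3c was lost without PCN mouse 688, without PCN mouse 706 and on raw counts, and with DESeq2 on its own size factors.

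The edgeR fit on the authors' size factors gave a log2 fold change of 2.02 (SE 0.32) for Ppp1r3c and 0.89 (SE 0.32) for Tat. DESeq2 on the same size factors also gave 2.02 and 0.89. The deposited estimates are smaller in size than these, and the reason was not tested. The smallest listed value of 0.6 is on the scale of the deposited estimates. Both differences were smaller without mouse 688. The log2 fold change was then 1.53 (SE 0.35) for Ppp1r3c, 2.90-fold, and 0.60 (SE 0.30) for Tat, 1.52-fold. Leaving out any other mouse gave between 1.87 and 2.22 for Ppp1r3c and between 0.81 and 1.05 for Tat. Scaling recomputed on the 33 selected rows centres on changed genes. Under it Tat was at 0.39 (SE 0.28) with TMM and 0.23 (SE 0.28) with DESeq2's size factors. Ppp1r3c was at 1.51 (SE 0.31) and 1.33 (SE 0.33).

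**Figure D2:**
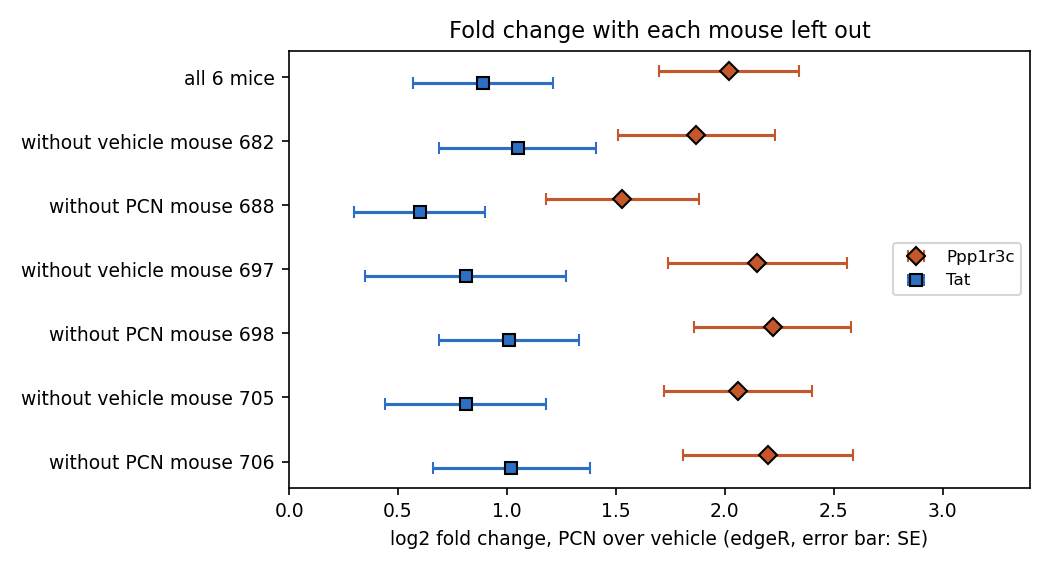
Log2 fold change of PCN over vehicle from edgeR (horizontal axis, error bars 1 SE) for Ppp1r3c and Tat, over 6 mice and with each mouse left out. Both genes reach their lowest value, 1.53 and 0.60, without PCN mouse 688.

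Within the groups the spread was wider with PCN than with vehicle for both genes. With PCN it lay mainly between mouse 688 and the other PCN mice. Mice 698 and 706 were close, at 1543 and 1626 for Ppp1r3c and 19666 and 19133 for Tat. Mouse 688 was at 3481 and 32279. The coefficient of variation of Ppp1r3c was 20.0% among vehicle mice and 49.5% among PCN mice, and that of Tat was 18.7% and 31.4%. Over the 33 listed genes the median was 27.1% with vehicle and 16.8% with PCN. Ppp1r3c had the largest coefficient among PCN mice of the 33, and Tat ranked 8. Counting error was small beside this spread, at 1.56% to 5.64% of the count for Ppp1r3c and 0.514% to 0.940% for Tat. Intervals from counting cover that error only, and not the error of the size factors.

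The genes did not rank the vehicle mice alike. By normalized count the order of the vehicle mice was 697, 705 and 682 from highest to lowest for Ppp1r3c and 682, 705 and 697 for Tat, the reverse. Mouse 682 stood apart in both. Its Ppp1r3c count, 425.9 (exact Poisson 95% interval 380 to 476), lay below those of mice 697 (590 to 690) and 705 (534 to 618). Its Tat count, 15569 (15286 to 15857), lay above those of mice 697 (11164 to 11584) and 705 (11283 to 11658). Mice 697 and 705 had overlapping counting intervals for both genes. Overlap alone does not settle whether their order is resolved, and this was not tested. On raw counts mouse 682, whose size factor of 0.7373 is the smallest of the 6, was still lowest for Ppp1r3c but second for Tat, behind mouse 705.

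Among the PCN mice both genes put mouse 688 first. Its normalized count was 2.26-fold that of the lowest PCN mouse for Ppp1r3c and 1.69-fold for Tat. Mice 706 and 698 followed in that order for Ppp1r3c and in the other order for Tat. Their counting intervals overlapped for Ppp1r3c (1553 to 1701 and 1459 to 1630) and met narrowly for Tat (18882 to 19386 and 19365 to 19971). The orders of the 3 mice thus agreed in 0 of 2 groups on normalized counts and in 1, the PCN group, on raw counts. With 3 mice in each of 2 separate groups, a relation between the genes cannot be tested, and no correlation over the 6 mice is given.

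**Figure D3:**
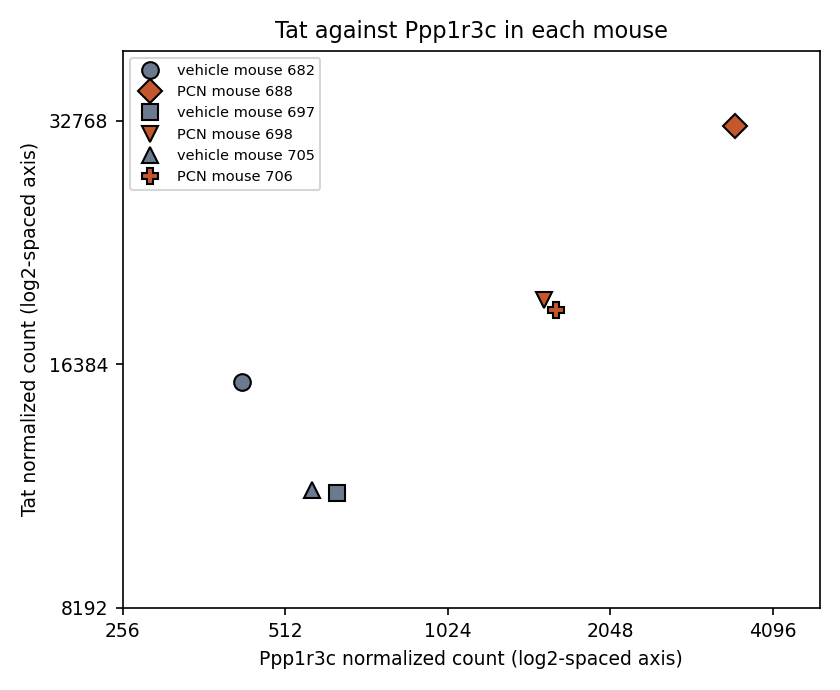
Normalized count of Tat (vertical, log2-spaced axis) against that of Ppp1r3c (horizontal, log2-spaced axis), 1 point per mouse. The 3 PCN mice lie above and to the right of the 3 vehicle mice, with mouse 688 farthest out, and vehicle mouse 682 sits at low Ppp1r3c and higher Tat than the other vehicle mice.

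The ratio of the genes within a mouse does not depend on how libraries are scaled. For every 100 Tat reads there were 2.73, 5.61 and 5.01 Ppp1r3c reads in vehicle mice 682, 697 and 705. In PCN mice 688, 698 and 706 there were 10.8, 7.84 and 8.50. Each PCN mouse lay above each vehicle mouse. The log2 ratio was -4.56 ± 0.56 in vehicle mice and -3.48 ± 0.24 in PCN mice (SD, n = 3 each), a difference of 1.07 (SE 0.35), or 2.11-fold. Without vehicle mouse 682 the difference was 0.76. The 2 genes were therefore not raised in equal proportion in these mice, a description that rests on the contrast from which they were chosen.

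Per length, Tat was the more abundant transcript in each of the 6 mice. Per kilobase of exon it had 5324 ± 996 normalized counts in vehicle mice and 9851 ± 3094 in PCN mice (SD, n = 3 each). Ppp1r3c had 200.5 ± 40.0 and 813.5 ± 402 (SD, n = 3 each). Within a mouse the Tat level per kilobase was 28.1 ± 11.6 times that of Ppp1r3c with vehicle and 12.8 ± 2.03 times with PCN (SD, n = 3 each). The highest of these ratios was 41.4 in vehicle mouse 682 and the lowest 10.5 in PCN mouse 688. By the authors' mean count Tat ranked first of the 33 listed genes.

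Beside the 21 listed genes that were higher with PCN, Ppp1r3c lay at the top and Tat toward the bottom. The median fold of group means over the 21 genes was 2.07, from 1.67 to 4.06, and Tat ranked 17. On log2 values centred on the vehicle mean of each gene, Ppp1r3c was at 2.69 in mouse 688, 1.52 in mouse 698 and 1.59 in mouse 706, ranking 1, 6 and 2 of 21. Tat was at 1.35, 0.64 and 0.60 in the same mice, ranking 8, 18 and 19. The median of the 21 genes was 1.28, 1.14 and 1.08. Mouse 688 was the highest PCN mouse for 13 of the 21 genes that were higher, both members among them, mouse 698 for 3 and mouse 706 for 5. Of the 12 that were lower, each PCN mouse was highest for 4. The lead of mouse 688 was thus shared by many of the genes listed as higher but not by all. The size factor of mouse 688 was 1.1742, close to the 1.1618 of mouse 706, and a part of depth in this lead was not tested.

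**Figure D4:**
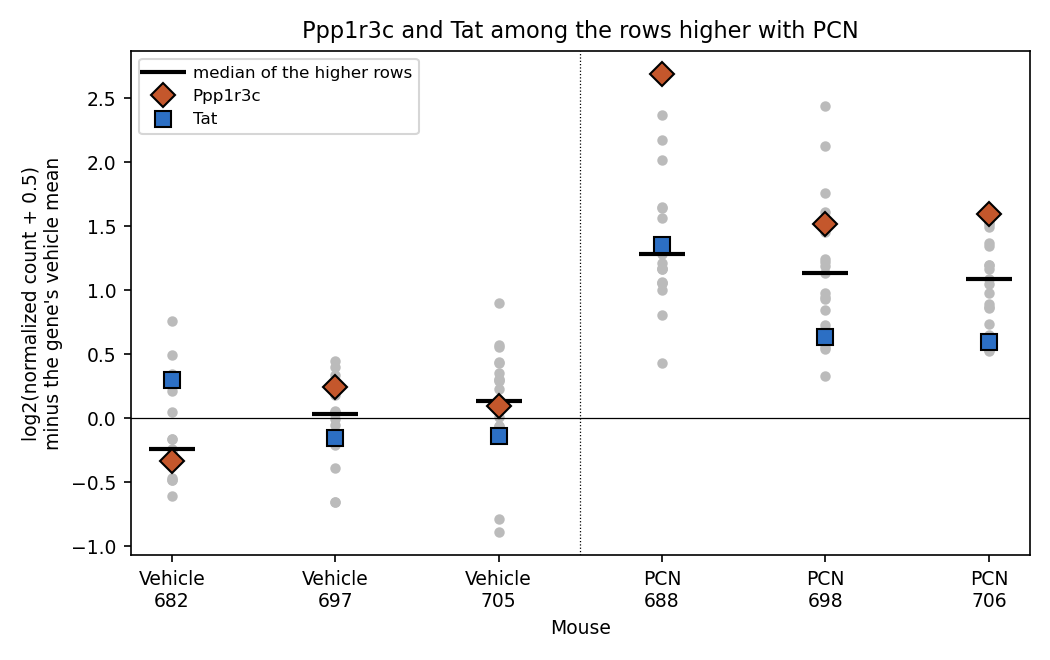
Log2 of the normalized count plus 0.5, minus the vehicle mean of the gene (vertical axis), in each of the 6 mice for the 21 genes listed as higher with PCN (grey), with Ppp1r3c, Tat and the median marked. Ppp1r3c is the highest gene in mouse 688, at 2.69, while Tat is near the median there, at 1.35, and below it in mice 698 and 706.

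The genes whose pattern was most like each member were found by the root mean square difference of these centred log2 values over the 6 mice. This measure takes in the size of the rise with PCN, the contrast on which all listed genes were selected. The nearest genes are therefore given as a description. Nearest to Tat were Ciart (0.10), which encodes a repressor of the circadian clock, Slc8a1 (0.16), a sodium-calcium exchanger gene, and Retreg1 (0.28), which encodes a receptor for autophagy of the endoplasmic reticulum. Ciart had normalized counts of 309, 232 and 250.5 in vehicle mice 682, 697 and 705, and 590 in mouse 688, 434 in mouse 698 and 379 in mouse 706. It shows the same high values in vehicle mouse 682 and PCN mouse 688 as Tat does, with an adjusted p of 0.05703 in the authors' deposited table. Slc8a1 had 605, 414 and 436 in the vehicle mice and 1183, 909 and 868 in the PCN mice, in the same order of mice. The 3 genes stayed the nearest to Tat without mouse 688. By log2 fold of means Ciart, Slc8a1 and Retreg1 stood at 0.83, 1.03 and 0.99, close to the 0.89 of Tat.

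Nearest to Ppp1r3c were Ccdc151 (0.45), a gene of motile cilia, and the predicted genes Gm43305 (0.48) and Gm24119 (0.59). None was as close to Ppp1r3c as Ciart was to Tat. Ppp1r3c had the largest log2 fold of means in the list, 2.02, so no listed gene matched its rise. Ccdc151, Gm43305 and Gm24119 stood at 1.48, 1.79 and 1.19. Gm43305 had normalized counts of 932, 1001 and 425 in vehicle mice 682, 697 and 705, and 3790, 2243 and 2099 in PCN mice 688, 698 and 706. It shares the lead of mouse 688 but not the low value of mouse 682. Ccdc151 was counted at low levels, 16.3, 26.1 and 28.6 with vehicle and 73.2, 64.1 and 60.2 with PCN. Of these genes 1, Ccdc151, remained among the 3 nearest without mouse 688. Tat ranked 16 of 32 in likeness to Ppp1r3c (0.84).

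The other genes of these pathways were looked up by name, and absence from the rows held says nothing of a gene's level, since the table is a selection. Listed genes called higher by the authors' test are 0.0672% of all genes tested, and those called lower 0.0395%, both lower bounds. The lists hold the members themselves, so their counts are read as a description. Of 12 genes of phosphatase 1, its glycogen-targeting subunits and its other regulators Ppp1r1a and Ppp1r2, 1 was listed, Ppp1r3c. Of 24 genes of glycogen synthesis and breakdown, 0 were listed for PCN. Of 8 genes of tyrosine and phenylalanine catabolism 1 was, Tat, and of 36 other genes of amino acid catabolism and the urea cycle 0 were. Of 18 genes of gluconeogenesis and glucose output 0 were, and of 20 glucocorticoid receptor targets 1 was, again Tat. Of 38 PXR and CAR target genes 1 was listed, Cyp2a4, a steroid hydroxylase gene that fell, with normalized counts of 393, 254 and 191 in vehicle mice 682, 697 and 705 and 115, 114 and 151.5 in PCN mice 688, 698 and 706.

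In the diet comparison, which shares no mouse with PCN against vehicle and was normalized separately, 1 gene of these lists was shared, Cyp2a4, and the others differed. Cyp2a4 was 10.98-fold higher on HFD than on chow, at 22.5, 25.9 and 25.3 in chow mice 670, 695 and 707 and 205, 216 and 388 in HFD mice 659, 669 and 696, the opposite direction to PCN. The other 4 PXR and CAR targets listed for diet, of 38, were also higher on HFD. Epm2a, which encodes the glycogen phosphatase laforin, rose on HFD from 68.4, 110.4 and 112 in chow mice 670, 695 and 707 to 215, 239 and 148 in HFD mice 659, 669 and 696. Slc2a2, the glucose transporter gene of hepatocytes, rose 1.86-fold. Of the amino acid genes Agxt2, a mitochondrial aminotransferase gene, rose 1.93-fold, while Cbs, the cystathionine synthesis gene, was 1.65-fold lower and Csad, a taurine synthesis gene, 4.30-fold lower. Listed genes called by the authors' test are 0.86% (higher) and 0.484% (lower) of about 24990 genes tested, as lower bounds. That test gave the genes named here, from Cyp2a4 to Csad, adjusted p-values of 4.14e-22, 0.01873, 0.02869, 0.0006387, 0.03584 and 3.29e-11 in that order.

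In bulk liver, more cells of a type and more RNA per cell cannot be told apart. Of 10 hepatocyte markers 0 are among the rows of either table, so the labelled tissue was not checked against them. Of 44 markers of liver cell types 1 was listed for PCN, the macrophage gene Cd163, 1 of 9 on its list. Genes listed and called higher with PCN are 0.0672% of all genes tested. On HFD against chow 4 of 8 stellate cell and fibroblast markers and 2 of 9 macrophage markers were called higher. Genes listed and called higher on HFD are 0.86% of all genes tested, and 0 of the remaining 27 markers were listed. Cd163 had normalized counts of 503, 690 and 518 in vehicle mice 682, 697 and 705, and 1180, 1286 and 938 in PCN mice 688, 698 and 706. The highest PCN mouse for Cd163, 698, was not the highest for Ppp1r3c or Tat, and its part in their difference was not tested. Total library sizes are unknown because the table is a selection. The counts summed over the 33 genes ran from 34989 to 103036 per mouse and the size factors from 0.7373 to 1.2576.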

How the data were processed

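The submitters' processing notes name HISAT2, HTSeq, DESeq2 and the genome build GRCm38 (mm10). Their versions and settings, and the strand setting of the counting, are not stated there. Per the file headers, the authors deposited raw counts per gene and mouse beside their mean, log2 fold change with its standard error, and both raw and adjusted p-values. The rows are selected, with absolute log2 fold changes of at least 0.6 and adjusted p-values up to 0.09547 (PCN) and 0.0474 (diet).

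The authors' mean column was solved by least squares for 1 size factor per mouse (largest gap 0.0051), and the number of genes tested from the ratio of adjusted to raw p. Normalized counts are counts over size factors. edgeR 4.0.16 (quasi-likelihood, R 4.3.3) was fitted to the 33 listed genes with these size factors, for estimates and SEs, the SE being the estimate divided by the root of F; its low-count filter kept 33 genes. Calls are the authors' at an adjusted p under 0.05, counted over the listed genes only. DESeq2 1.42.0, TMM, raw counts, medians and leaving out each mouse were alternatives. Likeness used a pseudocount of 0.5. Exon lengths are from GENCODE M21 and promoters from RefSeq (GRCm38.p6), where both genes were found. Table starts count from 0 and are given here from 1. No permutation test was run, since 3 mice against 3 cannot give p under 0.1.

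The members, the 7 pathway lists and the markers were chosen with earlier results of these data known. Named by rule were the members, listed genes on a pathway or marker list, and the 3 genes most like each member; markers and most PXR and CAR targets in the diet table are given as counts.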

Additional observations from a re-analysis of the deposited data

How the results depend on the processing

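Both genes were chosen as higher on this contrast, so nothing is read from their keeping that direction under each alternative run. Leaving out each mouse moved the log2 fold change of Ppp1r3c between 1.53 and 2.22, that of Tat between 0.60 and 1.05, and the change of their log2 ratio between 0.76 and 1.27. For Ppp1r3c (2.02) the value was 1.33 with DESeq2's own size factors, 1.50 as a difference of medians and 1.26 in the authors' deposited table. For Tat (0.89) it was 0.39 (SE 0.28) with TMM and 0.23 (SE 0.28) with DESeq2's own size factors, the latter less than 1 SE from 0. Both of these scalings are computed on genes selected for change, and they moved the median of all 33 genes from 0.89 to 0.39 and 0.25. Raw counts gave 2.12 and 1.04.

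The count of listed genes called higher (17) was 7 at an adjusted p under 0.01, and 2 with edgeR or DESeq2 on the authors' size factors, adjusted over about 25290 genes. Both refits called 0 lower (12 at an unadjusted p under 0.05), against 10 of the listed genes in the authors' test. The refits used the listed genes alone for the spread and the ranks, so their counts are not like for like with the authors' counts. On scalings of the listed genes or none, the counts higher and lower were 1 and 8 with TMM, 0 and 12 with DESeq2's own size factors (8 higher at an unadjusted p under 0.05) and 0 and 0 with edgeR on raw counts (16 higher and 10 lower at an unadjusted p under 0.05). The edgeR count was 0 without PCN mouse 688 and 0 without PCN mouse 706 (19 and 20 genes higher at an unadjusted p under 0.05), 3 without vehicle mouse 682 and 4 without vehicle mouse 705. Both genes gave the same order of mice in 0 groups on normalized and 1 on raw counts. The likeness without mouse 688 was added after seeing the data. The filter on low counts removed 0 genes. No paired analysis was possible because the mouse numbers are not shared between groups. The order of mice whose counting intervals overlap is uncertain, since overlap alone does not settle whether counting depth resolves it.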
